A study of Homo sapiens with 12 samples.

Results

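The genes described here are 32 genes of glycolysis, lactate export and the pentose phosphate pathway, picked by symbol from a count table of 27864 genes. All 32 symbols are in the table, and 30 of them had enough reads to be tested, among 16081 genes tested in all; LDHB and TKTL1 did not. The samples are T47D cells, a luminal breast cancer line that carries an activating mutation of the PI3K alpha catalytic subunit, so every group shares that mutation. RNA was collected from NF1KO cells given 3 µM BYL719 for 48 h (3 libraries), NF1KO cells given DMSO (2 libraries), CTRL cells given 3 µM BYL719 for 48 h (3 libraries) and CTRL cells given DMSO (3 libraries). BYL719 is alpelisib, an inhibitor of PI3K alpha, DMSO is its vehicle, and NF1 encodes neurofibromin, which turns RAS off by speeding its GTP hydrolysis. The labels name 1 line per genotype; whether it is a clone or a pool is not given in the sources used here, so loss of NF1 and any other difference between the lines cannot be told apart. The labels call the 3 samples of a group experimental replicates and do not say more, so p-values measure the spread between these libraries, which may be in part technical. NF1KO DMSO replicate 1 is labelled and was not analysed here.

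Libraries held 53283945 to 60148876 counted reads. NF1 averaged 0.613 ± 0.252 CPM in NF1KO BYL719, 0.475 ± 0.00633 CPM in NF1KO DMSO, 171 ± 37.1 CPM in CTRL BYL719 and 249 ± 39.6 CPM in CTRL DMSO (SD; n = 3, 2, 3 and 3), in keeping with the genotype labels. The summed level of 10 luminal markers, including KRT8, ESR1 and GATA3, was 11964 to 12761 CPM in NF1KO BYL719, 12489 to 12656 CPM in NF1KO DMSO, 13136 to 15478 CPM in CTRL BYL719 and 11117 to 12901 CPM in CTRL DMSO. The sum hides single markers: ESR1 averaged 181 CPM in NF1KO DMSO and 323 CPM in CTRL DMSO. In the test used below, 3 of the 10 were called lower in NF1KO cells in DMSO, against 10.3% of all genes. In BYL719 5 were called lower, against 19% of all genes, and 0 were called higher in either treatment. Markers of basal, fibroblast, leukocyte and endothelial cells (13 genes) summed to 19.0 to 24.0 CPM, 27.9 to 28.0 CPM, 31.3 to 39.0 CPM and 51.6 to 56.9 CPM in the same order of groups, most of it from COL1A1, which reached at most 55.2 CPM; 3, 5, 1 and 5 of the 13 were at 0 in every library of the group. The part of these differences in the results below was not tested. Both CTRL libraries numbered 1 stood apart from numbers 2 and 3 of their group. In CTRL BYL719 the chi-square per gene between libraries was 61.7 and 67.8 for number 1, and 11.4 between numbers 2 and 3. In CTRL DMSO it was 50.9 and 49.97, and 6.83. Within the NF1KO groups it ran from 10.2 to 34.1. Number 1 was the lowest of the 3 for 20 of the 30 tested genes in CTRL BYL719 and for 20 in CTRL DMSO. For 17 genes this held in both. The same share of all genes is not given, so these counts do not set the pathway apart. Counts of changed genes are therefore given with and without both CTRL libraries numbered 1. Values are CPM, counts scaled to a common library size with TMM factors. The RNA is bulk RNA, in which fewer cells expressing a gene and less RNA of it per cell cannot be told apart.

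Glycolysis splits glucose into pyruvate. Glucose enters through SLC2A1, is trapped by hexokinase, is committed by phosphofructokinase and yields ATP at the steps of PGK1 and PKM. LDHA reduces pyruvate to lactate, which leaves the cell with a proton through the monocarboxylate transporters SLC16A1 and SLC16A3, while PDK1 limits the entry of pyruvate into mitochondria. The pentose phosphate pathway branches off at glucose phosphate and supplies NADPH and ribose phosphate, which PRPS1 and PRPS2 turn into PRPP, the precursor of nucleotides. PI3K and AKT signalling is known to promote glucose uptake and glycolysis, and RAS and MYC are known to raise transcription of many of these genes.

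Levels per kilobase (RPKM, library-scaled reads over exon length) placed PKM, GAPDH, ENO1 and ALDOA on top. In CTRL DMSO cells PKM stood at 605 ± 42.8, GAPDH at 603 ± 47.1, ENO1 at 555 ± 40.1 and ALDOA at 495 ± 56.7 RPKM (SD, n = 3), and neighbours in that order differed by less than the sum of their SDs. LDHA, at 149 ± 5.55 RPKM, and PGK1, at 148 ± 12.9 RPKM, came next and lay within each other's spread. TKT, the non-oxidative pentose phosphate enzyme transketolase, was at 121 ± 4.40 RPKM, and PGD, which makes NADPH, at 94.1 ± 5.12 RPKM. The lowest tested genes were PDK1 at 2.83 ± 0.097 RPKM and SLC16A1 at 2.20 ± 0.0477 RPKM. The place of PDK1 rests on an exon length of 14253 bases. In CPM PDK1 averaged 40.4 ± 1.38 in CTRL DMSO, above ENO2, for example, at 18.6 ± 1.55. LDHB, the other common lactate dehydrogenase subunit, had 0 or 1 count in every library, and TKTL1, a transketolase-like gene, had 2 counts in NF1KO BYL719 replicate 2 and 0 counts elsewhere; both stayed at or under 3 counts, the limit that a count of 0 allows.

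With BYL719 the called changes ran mostly downward in both lines. In NF1KO cells 12 of the 30 tested genes fell and 0 rose (edgeR quasi-likelihood test, adjusted p under 0.05 over all genes tested). In CTRL cells 18 fell and 2 rose, SLC2A1 and ALDOC. In NF1KO cells 2 genes, ENO2 and PRPS2, were higher at an unadjusted p under 0.05, and DESeq2 and limma also called 0 higher. The share called was 40% of these genes against 18.7% of all genes tested in NF1KO cells, and 66.7% against 44.4% in CTRL cells; by direction, 8.47% of all genes were called lower and 10.3% higher in NF1KO cells, and 21.8% lower and 22.6% higher in CTRL cells. The background of all genes was not matched for expression level. Among genes with at least 1 CPM in at least 3 libraries, 21.8% were called in NF1KO cells and 48% in CTRL cells. With that filter 12 and 21 of the 30 genes were called. In the main fit the median log2 change of the 30 genes was -0.24 in NF1KO cells, against 0.01 for all genes. In CTRL cells the median was -0.36, against 0.00 for all genes. The largest falls were those of TKT, GPI and GAPDH in NF1KO cells and of the lactate exporter SLC16A3, LDHA and GPI in CTRL cells. The NF1KO calls rest on 2 DMSO libraries: those of GPI, GAPDH and TKT held in each of 11 fits that left out 1 library, and the other 9 were lost without at least 1 of these 2 libraries. The NF1KO count was 5 without NF1KO DMSO replicate 2, 3 without NF1KO DMSO replicate 3 and 7 without NF1KO BYL719 replicate 2, and it was 22 without both CTRL libraries numbered 1, which enter the shared estimate of spread. The CTRL count was 22 without those 2 libraries.

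Between the lines the pathway did not shift one way. In DMSO 2 genes were higher in NF1KO than in CTRL cells (PFKFB3 and TKT) and 5 were lower (PDK1, LDHA, PFKFB4, PFKM and PFKL), 23.3% of the tested genes against 20.3% of all genes (9.99% higher and 10.3% lower). That count was 2 without NF1KO DMSO replicate 2, 3 without NF1KO DMSO replicate 3 and 9 without both CTRL libraries numbered 1. In BYL719 6 were higher in NF1KO (PFKFB3, SLC16A3, SLC16A1, PRPS2, PGAM1 and PFKP) and 6 lower (ALDOC, HK2, SLC2A1, PFKM, ENO1 and PFKL), 40% against 39.8% of all genes (20.8% higher and 19% lower), and the count was 14 without both CTRL libraries numbered 1. Both shares are near the background, so the number of genes that differed between the lines says nothing particular about the pathway.

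**Figure D1:**
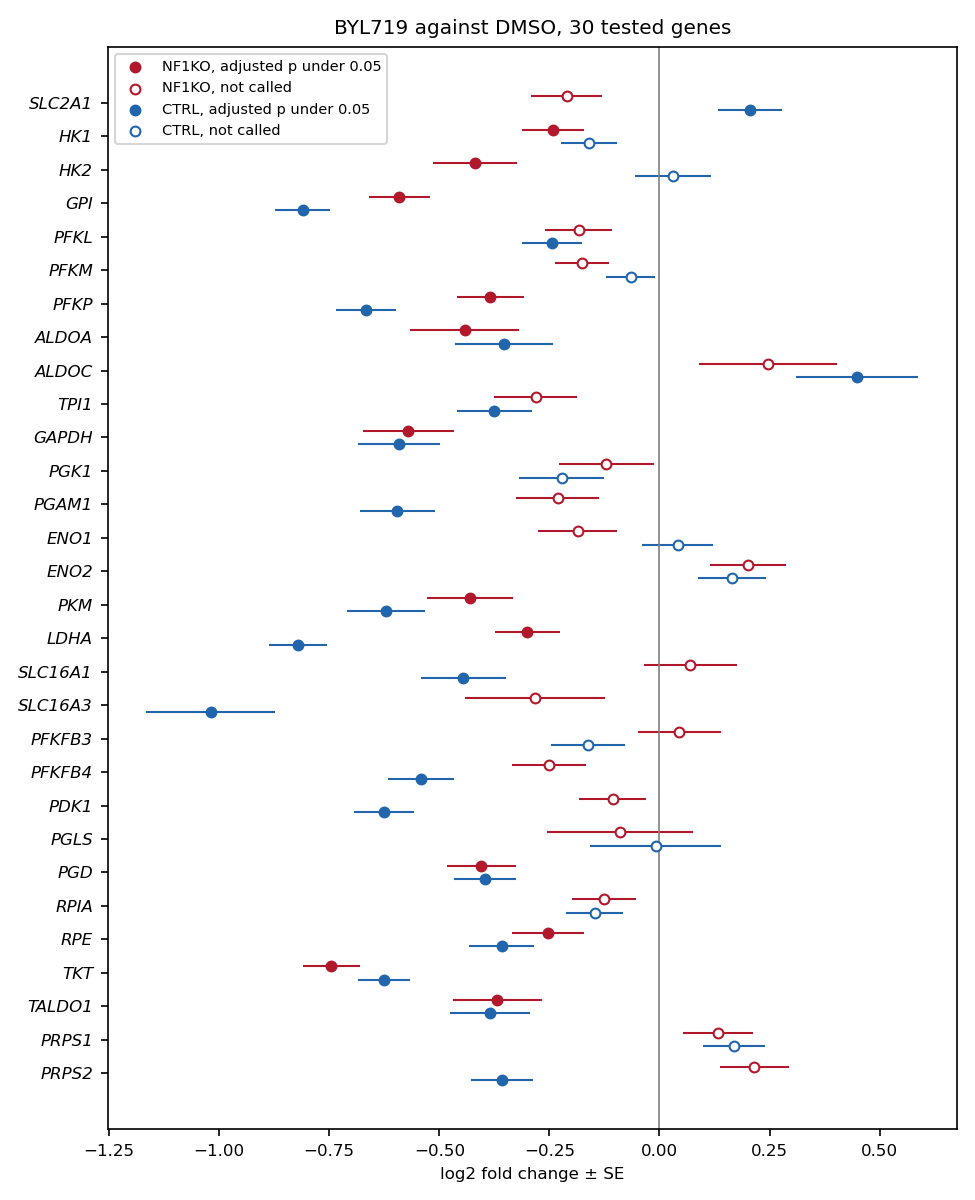
Log2 fold change of each tested gene with BYL719 against DMSO in NF1KO (red) and CTRL (blue) cells; points are fitted values, bars 1 SE, and filled points have an adjusted p under 0.05. Most points lie left of 0 in both lines, with 12 genes called lower in NF1KO and 18 in CTRL cells.

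The response to BYL719 itself differed between the lines for 6 of the 30 genes, 20% against 9.39% of all genes (5.68% positive and 3.71% negative; interaction term of the same fit). For 4 of them, LDHA, PDK1, SLC16A1 and PRPS2, the difference was positive, and for SLC2A1 and HK2 it was negative. LDHA and PRPS2 were called in each of 11 fits that left out 1 library. PDK1 lost its call without NF1KO DMSO replicate 3 (0.46, adjusted p = 0.0681), and SLC2A1, HK2 and SLC16A1 each kept theirs in 2 of the 11 fits. The 2 CTRL libraries numbered 1 deviated alike, and numbers 2 and 3 were not clearly matched. With the replicate number as a block, fitted as 1 effect over both lines, 10 genes were called. There were 13 with a block within each genotype and 9 without both CTRL libraries numbered 1. The count was 3 without CTRL BYL719 replicate 2, CTRL DMSO replicate 2, CTRL DMSO replicate 3, NF1KO BYL719 replicate 2 or NF1KO DMSO replicate 2, and 2 without NF1KO DMSO replicate 3. The 6 differences kept their sign in each of these fits.

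**Figure D2:**
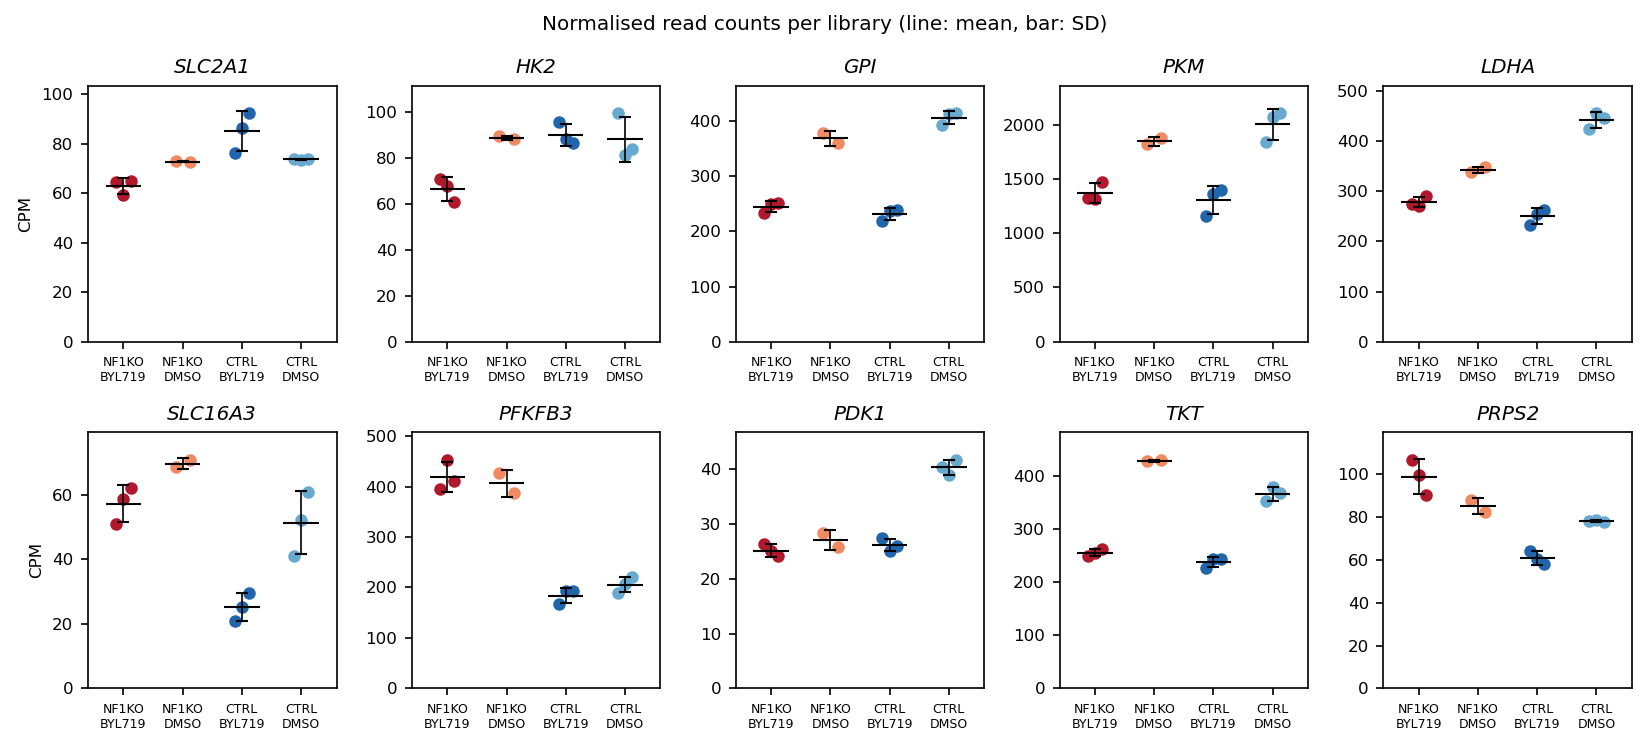
CPM of 10 genes in each library, by group from NF1KO BYL719 to CTRL DMSO; points are libraries, horizontal lines group means and bars 1 SD. PFKFB3 separates the lines, GPI, PKM and TKT separate the treatments, and LDHA, PDK1, PRPS2, SLC2A1 and HK2 change with BYL719 to a different extent in NF1KO and CTRL cells.

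The response of the glucose uptake gene differed between the lines. SLC2A1, the glucose transporter of most dividing cells (chromosome 1, 42925353 to 42958868, GRCh38), had 64.3, 59.3 and 65.00 CPM in NF1KO cells with BYL719, and 72.8 and 72.6 CPM with DMSO. In CTRL cells SLC2A1 had 76.2, 86.4 and 92.1 CPM with BYL719, and 73.7, 73.4 and 73.6 CPM with DMSO. BYL719 libraries were all below DMSO in NF1KO cells and all above DMSO in CTRL cells. Its log2 change with BYL719 was -0.21 ± 0.08, adjusted p = 0.0904 in NF1KO cells and 0.21 ± 0.07, adjusted p = 0.0358 in CTRL cells (each ± is 1 SE), with a difference of -0.42 ± 0.11, adjusted p = 0.0317; the CTRL call was lost in 7 of the 11 fits that left out 1 library. Under BYL719 the level was lower in NF1KO than in CTRL cells (-0.43 ± 0.07, adjusted p = 0.000458).

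Hexokinase traps glucose in the cell as glucose phosphate, and HK2 is the isoform most often tied to tumour glycolysis. HK2 (chromosome 2, 74834127 to 74893359) had 71.00, 67.8 and 60.7 CPM in NF1KO cells with BYL719, and 89.6 and 88.3 CPM with DMSO. In CTRL cells HK2 had 95.6, 88.1 and 86.8 CPM with BYL719, and 99.5, 81.2 and 84.2 CPM with DMSO. It fell with BYL719 in NF1KO cells (-0.42 ± 0.10, adjusted p = 0.0107), where the treatments did not overlap, and had a change of 0.03 ± 0.09, adjusted p = 0.803 in CTRL cells, where they did. The difference was -0.45 ± 0.13, adjusted p = 0.0484, and under BYL719 HK2 was lower in NF1KO than in CTRL cells (-0.44 ± 0.09, adjusted p = 0.00148). HK1, the widely expressed isoform, had 329, 331 and 327 CPM in NF1KO cells with BYL719, and 396 and 381 CPM with DMSO. In CTRL cells HK1 had 289, 318 and 328 CPM with BYL719, and 334, 351 and 359 CPM with DMSO. HK1 fell in NF1KO cells (-0.24 ± 0.07, adjusted p = 0.0338), a call that held in 5 of the 11 fits that left out 1 library. In CTRL cells the treatments also did not overlap. The CTRL change of -0.16 ± 0.06, adjusted p = 0.0587 was called with the replicate block (-0.16, adjusted p = 0.0245).

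The next steps carried the clearest treatment effect of the upper pathway. GPI, which turns glucose phosphate into fructose phosphate, had 234, 249 and 252 CPM in NF1KO cells with BYL719, and 379 and 359.5 CPM with DMSO. In CTRL cells GPI had 219, 236 and 239.8 CPM with BYL719, and 393, 412 and 414 CPM with DMSO. BYL719 libraries lay below DMSO in both lines, with log2 changes of -0.59 ± 0.07, adjusted p = 0.00023 in NF1KO and -0.81 ± 0.06, adjusted p = 1.04e-06 in CTRL cells. Among the phosphofructokinase genes, which encode the committed step, PFKP (platelet type) had 137, 152 and 157 CPM in NF1KO cells with BYL719, and 195 and 193 CPM with DMSO. In CTRL cells PFKP had 115, 108 and 117 CPM with BYL719, and 172, 178 and 189.8 CPM with DMSO. It fell in both lines (-0.38 ± 0.08, adjusted p = 0.00502 in NF1KO; -0.67 ± 0.07, adjusted p = 1.12e-05 in CTRL) and under BYL719 was higher in NF1KO than in CTRL cells (0.39 ± 0.07, adjusted p = 0.000658).

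The other phosphofructokinase genes went the other way between the lines. PFKL (liver type) had 113, 112 and 123 CPM in NF1KO cells with BYL719, and 133 and 130.3 CPM with DMSO. In CTRL cells PFKL had 130.4, 127 and 142 CPM with BYL719, and 149.5, 156 and 168 CPM with DMSO. NF1KO libraries lay below the CTRL libraries of the same treatment. PFKM (muscle type) had 101, 105 and 100.1 CPM in NF1KO cells with BYL719, and 116 and 115 CPM with DMSO. In CTRL cells PFKM had 128, 137 and 138 CPM with BYL719, and 143, 140.0 and 139.5 CPM with DMSO. The same order held for PFKM, without overlap. PFKL differed by -0.26 ± 0.08, adjusted p = 0.0317 in DMSO and -0.20 ± 0.07, adjusted p = 0.0347 in BYL719, and PFKM by -0.29 ± 0.06, adjusted p = 0.00613 and -0.40 ± 0.06, adjusted p = 0.000104; both DMSO calls were lost without NF1KO DMSO replicate 2 or without replicate 3. The DMSO call of PFKL was also lost without CTRL DMSO replicate 2 or replicate 3, and its BYL719 call in 5 of the 11 fits that left out 1 library. BYL719 lowered PFKL in CTRL cells (-0.24 ± 0.07, adjusted p = 0.0119), a call lost without CTRL BYL719 replicate 2 (adjusted p = 0.0517). PFKM overlaps SENP1, whose counts came to 36.9% of those of PFKM, and the strand setting of the counting is not given in the sources used here; SENP1 differed by 0.02 ± 0.10, adjusted p = 0.923 between the lines in DMSO and 0.37 ± 0.09, adjusted p = 0.00513 in BYL719, upward where PFKM was lower.

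Aldolase splits the sugar into the trioses. ALDOA, the main form, had 829.8, 833 and 916 CPM in NF1KO cells with BYL719, and 1190.1 and 1145 CPM with DMSO. In CTRL cells ALDOA had 774, 988 and 1038 CPM with BYL719, and 1036, 1252 and 1289 CPM with DMSO. It fell with BYL719 in NF1KO (-0.44 ± 0.12, adjusted p = 0.0281) and CTRL cells (-0.35 ± 0.11, adjusted p = 0.0227), where the ranges overlapped; the CTRL call was lost without CTRL BYL719 replicate 1, CTRL DMSO replicate 2 or CTRL DMSO replicate 3, and the NF1KO call in 4 of the 11 such fits. ALDOC, the form known from brain, had 60.7, 60.01 and 66.01 CPM in NF1KO cells with BYL719, and 53.8 and 51.2 CPM with DMSO. In CTRL cells ALDOC had 78.8, 106 and 112 CPM with BYL719, and 58.6, 75.1 and 83.97 CPM with DMSO. Treated and DMSO libraries overlapped in CTRL cells. Its change with BYL719 was 0.25 ± 0.16, adjusted p = 0.306 in NF1KO cells and 0.45 ± 0.14, adjusted p = 0.0196 in CTRL cells, a call lost without CTRL BYL719 replicate 2, CTRL BYL719 replicate 3 or CTRL DMSO replicate 1. The NF1KO libraries lay below CTRL libraries in both treatments (-0.67 ± 0.14, adjusted p = 0.00214 in BYL719; -0.47 ± 0.16, adjusted p = 0.0558 in DMSO).

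Of the 6 enzymes of the lower pathway, 2 fell with BYL719 in NF1KO cells, 33.3% against 8.47% of all genes tested, and 3 in CTRL cells, 50% against 21.8% of all genes; 0 rose in either line. GAPDH, which oxidises the triose and makes NADH, had 836, 855 and 941 CPM in NF1KO cells with BYL719, and 1293 and 1312 CPM with DMSO. In CTRL cells GAPDH had 771, 959 and 939.6 CPM with BYL719, and 1221, 1391 and 1411 CPM with DMSO. Treated libraries were below DMSO libraries in both lines, with log2 changes of -0.57 ± 0.10, adjusted p = 0.00313 in NF1KO and -0.59 ± 0.09, adjusted p = 0.000298 in CTRL cells; the difference was 0.02 ± 0.14, adjusted p = 0.955. PKM, pyruvate kinase, had 1324, 1313 and 1474 CPM in NF1KO cells with BYL719, and 1817 and 1875 CPM with DMSO. In CTRL cells PKM had 1156, 1356 and 1398 CPM with BYL719, and 1841, 2067 and 2102 CPM with DMSO. It also fell in both lines (-0.43 ± 0.10, adjusted p = 0.0103 in NF1KO; -0.62 ± 0.09, adjusted p = 0.000135 in CTRL). PGAM1, the phosphoglycerate mutase, ran from 104 to 188 CPM and fell in CTRL cells (-0.60 ± 0.08, adjusted p = 0.000138), with a change of -0.23 ± 0.09, adjusted p = 0.108 in NF1KO cells and a higher level in NF1KO under BYL719 (0.40 ± 0.08, adjusted p = 0.00238).

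Enolase and PGK1 passed the treatment test in neither line. ENO1 had 1136, 1129 and 1209.9 CPM in NF1KO cells with BYL719, and 1328 and 1307 CPM with DMSO. In CTRL cells ENO1 had 1232, 1474 and 1410.2 CPM with BYL719, and 1233, 1426 and 1342 CPM with DMSO. BYL719 libraries lay below DMSO in NF1KO cells and overlapped DMSO in CTRL cells. ENO2, the neuronal form, had 21.7, 22.7 and 21.2 CPM in NF1KO cells with BYL719, and 19.8 and 18.2 CPM with DMSO. In CTRL cells ENO2 had 20.9, 19.9 and 21.8 CPM with BYL719, and 17.5, 17.99 and 20.4 CPM with DMSO. Here BYL719 libraries lay above DMSO in NF1KO cells and overlapped DMSO in CTRL cells. The estimates of ENO1 were -0.19 ± 0.09, adjusted p = 0.175 in NF1KO and 0.04 ± 0.08, adjusted p = 0.716 in CTRL cells. Under BYL719 ENO1 was lower in NF1KO than in CTRL cells (-0.24 ± 0.08, adjusted p = 0.0309), a call lost in 6 of the 11 fits that left out 1 library. PGK1 ran from 549.6 to 785 CPM with overlap in every comparison, and its change in CTRL cells of -0.22 ± 0.10, adjusted p = 0.0814 was called with the replicate block (-0.22, adjusted p = 0.0122). TPI1, the triose isomerase, ran from 181 to 283 CPM and fell in CTRL cells (-0.38 ± 0.08, adjusted p = 0.00354), against -0.28 ± 0.09, adjusted p = 0.0576 in NF1KO cells; its pseudogenes in the table held 4.29% as many counts.

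All 3 tested lactate genes fell with BYL719 in CTRL cells, where 21.8% of all genes did, and LDHA also fell in NF1KO cells, where 8.47% did. The bases before the start sites of LDHA, PDK1, PFKFB3 and PFKFB4 are shown because these are the genes of the lactate and regulatory steps that differed between the lines in DMSO; the 250 bases upstream of the start that RefSeq lists (GRCh38.p14) read 5′ to 3′, with capitals on ACGTG or GCGTG, the core letters to which HIF factors are known to bind, on either strand (CACGT and CACGC are their reverse complements).
LDHA, chr11:18394313-18394562, plus strand: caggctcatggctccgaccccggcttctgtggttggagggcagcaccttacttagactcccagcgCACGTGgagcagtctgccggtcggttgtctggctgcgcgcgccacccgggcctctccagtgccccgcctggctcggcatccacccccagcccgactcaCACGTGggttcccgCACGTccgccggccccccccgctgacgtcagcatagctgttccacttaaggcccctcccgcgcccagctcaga
PDK1, chr2:172555123-172555372, plus strand: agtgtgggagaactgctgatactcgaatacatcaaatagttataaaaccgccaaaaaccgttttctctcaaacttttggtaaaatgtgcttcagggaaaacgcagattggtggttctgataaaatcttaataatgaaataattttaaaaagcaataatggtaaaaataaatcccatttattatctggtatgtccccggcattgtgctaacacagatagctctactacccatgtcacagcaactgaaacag
PFKFB3, chr10:6144671-6144920, plus strand: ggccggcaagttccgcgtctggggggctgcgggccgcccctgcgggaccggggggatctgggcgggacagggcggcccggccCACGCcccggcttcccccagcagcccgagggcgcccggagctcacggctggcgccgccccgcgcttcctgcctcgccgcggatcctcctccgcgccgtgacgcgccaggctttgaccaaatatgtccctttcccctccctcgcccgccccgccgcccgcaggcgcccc
PFKFB4, chr3:48556804-48557053, minus strand: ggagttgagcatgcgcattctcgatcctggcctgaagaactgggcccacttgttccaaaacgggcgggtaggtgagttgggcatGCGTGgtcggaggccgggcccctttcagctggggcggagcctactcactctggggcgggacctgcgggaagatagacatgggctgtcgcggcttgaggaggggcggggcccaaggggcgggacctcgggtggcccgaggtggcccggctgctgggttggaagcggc

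The LDHA window held 5 matches of ACGTG over both strands, some of them overlapping, and the PDK1 window 0, and the PFKFB3 and PFKFB4 windows held 1 GCGTG each. Of 31 of the 32 genes with a listed promoter, 9 (29%) had ACGTG in the 250 bases, against 18.7% of 27305 listed promoters, and 10 (32.3%) had GCGTG, against 31.9%. CACGTG, the E-box letters that contain ACGTG, was in 3 (9.68%) against 6.49%, TGACNNNGC, letters of the antioxidant response element, in 6 (19.4%) against 11%, and TGTTTAC, letters that FOXO factors bind, in 0 against 2.98%. The PFKFB4 start that RefSeq lists lies inside the gene's full span. These are counts of letters in a window, not binding sites.

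LDHA (chromosome 11, 18394563 to 18408425) had 275, 270.5 and 291 CPM in NF1KO cells with BYL719, and 339 and 347 CPM with DMSO. In CTRL cells LDHA had 232, 255 and 263 CPM with BYL719, and 423, 455 and 446 CPM with DMSO. The order was the same in every library: CTRL DMSO above NF1KO DMSO, both above NF1KO BYL719, and CTRL BYL719 lowest. BYL719 lowered LDHA by a log2 change of -0.30 ± 0.07, adjusted p = 0.0146 in NF1KO cells and -0.82 ± 0.07, adjusted p = 1.48e-06 in CTRL cells, a difference of 0.52 ± 0.10, adjusted p = 0.00562. In DMSO it was lower in NF1KO than in CTRL cells (-0.36 ± 0.07, adjusted p = 0.0043), a call that missed the threshold without NF1KO DMSO replicate 2 (adjusted p = 0.0588), and in BYL719 the difference was 0.16 ± 0.07, adjusted p = 0.0782.

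SLC16A3, the exporter of strongly glycolytic cells (chromosome 17, 82217934 to 82240086), had 50.9, 58.9 and 62.2 CPM in NF1KO cells with BYL719, and 68.6 and 70.9 CPM with DMSO. In CTRL cells SLC16A3 had 20.98, 25.4 and 29.7 CPM with BYL719, and 41.2, 52.1 and 60.9 CPM with DMSO. NF1KO libraries lay above CTRL libraries in both treatments, by 1.18 ± 0.15, adjusted p = 4.73e-05 in BYL719 and 0.44 ± 0.16, adjusted p = 0.0717 in DMSO. With BYL719 it fell in CTRL cells (-1.02 ± 0.15, adjusted p = 0.00015), and its change was -0.28 ± 0.16, adjusted p = 0.245 in NF1KO cells. The difference of 0.74 ± 0.22, adjusted p = 0.0558, missed the threshold. It was called without both CTRL libraries numbered 1 (0.76, adjusted p = 0.00287). It was also called with the replicate block, which assumes that a number has the same effect in both lines (0.85, adjusted p = 8.37e-05). Its overlapping neighbour CSNK1D held 276% as many counts and moved against it: CSNK1D changed by 0.42 ± 0.06, adjusted p = 0.000137 with BYL719 in CTRL cells and by -0.24 ± 0.06, adjusted p = 0.00591 between NF1KO and CTRL cells in BYL719.

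SLC16A1, the more widely expressed monocarboxylate transporter (chromosome 1, 112911847 to 112956196), had 12.3, 13.2 and 11.3 CPM in NF1KO cells with BYL719, and 12.4 and 10.9 CPM with DMSO. In CTRL cells SLC16A1 had 8.37, 6.92 and 7.35 CPM with BYL719, and 10.5, 10.3 and 10.04 CPM with DMSO. It fell with BYL719 in CTRL cells (-0.45 ± 0.10, adjusted p = 0.00267), where the treatments did not overlap, and its change was 0.07 ± 0.11, adjusted p = 0.697 in NF1KO cells, where they did. The difference was 0.52 ± 0.14, adjusted p = 0.0425. Under BYL719 it was higher in NF1KO than in CTRL cells (0.70 ± 0.10, adjusted p = 0.000101), against 0.18 ± 0.11, adjusted p = 0.248 in DMSO. The overlapping pseudogene AKR7A2P1 held 12% as many counts.

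The 3 regulators differed between the lines in DMSO in unlike directions, where 20.3% of all genes differed. PFKFB3 makes and PFKFB4 makes or removes the fructose bisphosphate that activates phosphofructokinase. PFKFB3 (chromosome 10, 6144921 to 6326637) had 395, 453 and 412 CPM in NF1KO cells with BYL719, and 426 and 388 CPM with DMSO. In CTRL cells PFKFB3 had 167, 192 and 193 CPM with BYL719, and 189.8, 207 and 220.5 CPM with DMSO. Every NF1KO library was above every CTRL library, by a log2 difference of 1.19 ± 0.09, adjusted p = 4.24e-07 in BYL719 and 0.98 ± 0.09, adjusted p = 1.23e-05 in DMSO, calls that held in each fit that left out 1 library. BYL719 changed it by 0.04 ± 0.09, adjusted p = 0.787 in NF1KO and -0.16 ± 0.08, adjusted p = 0.138 in CTRL cells; the CTRL change was called with the replicate block (-0.16, adjusted p = 0.031).

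PFKFB4 had 20.6, 17.8 and 19.6 CPM in NF1KO cells with BYL719, and 23.4 and 22.6 CPM with DMSO. In CTRL cells PFKFB4 had 19.9, 19.99 and 19.5 CPM with BYL719, and 28.9, 26.8 and 30.8 CPM with DMSO. Treated and DMSO libraries did not overlap in either line. It was lower in NF1KO than in CTRL cells in DMSO (-0.33 ± 0.08, adjusted p = 0.0168), a call lost without CTRL DMSO replicate 3 or either NF1KO DMSO library, and it fell with BYL719 in CTRL cells (-0.54 ± 0.07, adjusted p = 0.000109), against -0.25 ± 0.08, adjusted p = 0.0556 in NF1KO cells. PDK1, pyruvate dehydrogenase kinase (chromosome 2, 172555373 to 172724312), had 26.4, 25.01 and 24.1 CPM in NF1KO cells with BYL719, and 28.4 and 25.8 CPM with DMSO. In CTRL cells PDK1 had 27.4, 25.1 and 26.01 CPM with BYL719, and 40.5, 38.9 and 41.7 CPM with DMSO. CTRL DMSO libraries stood above all the others. It was lower in NF1KO cells in DMSO (-0.58 ± 0.08, adjusted p = 0.000213) and differed by -0.06 ± 0.07, adjusted p = 0.545 in BYL719; BYL719 lowered it in CTRL cells (-0.63 ± 0.07, adjusted p = 1.73e-05), against -0.11 ± 0.08, adjusted p = 0.37 in NF1KO cells, a difference of 0.52 ± 0.10, adjusted p = 0.00721. The DMSO comparison and the CTRL drug comparison share the CTRL DMSO libraries.

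**Figure D3:**
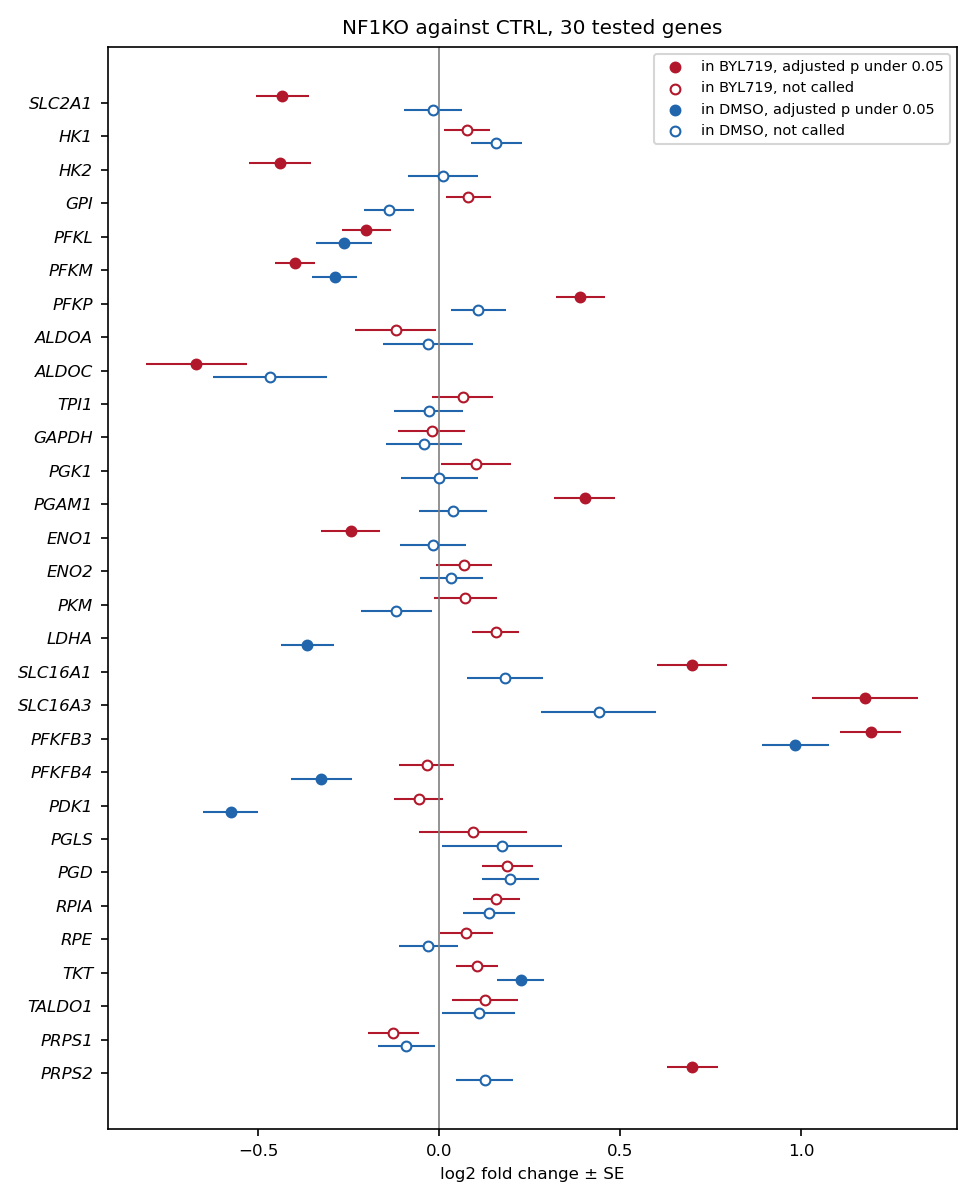
Log2 fold change of each tested gene in NF1KO against CTRL cells, in BYL719 (red) and in DMSO (blue); points are fitted values, bars 1 SE, and filled points have an adjusted p under 0.05. PFKFB3 lies about 1 log2 unit to the right in both treatments, SLC16A3, SLC16A1 and PRPS2 are called higher in BYL719, and PDK1 and LDHA are called lower in DMSO.

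Of the 8 tested genes of the pentose phosphate pathway and PRPP synthesis, 4 fell with BYL719 in NF1KO cells, 50% against 8.47% of all genes tested, and 5 in CTRL cells, 62.5% against 21.8%; 0 rose in either line. TKT had 248, 256 and 263 CPM in NF1KO cells with BYL719, and 427 and 430.3 CPM with DMSO. In CTRL cells TKT had 228, 243 and 243 CPM with BYL719, and 353, 379 and 368 CPM with DMSO. Treated and DMSO libraries did not overlap in either line, and its log2 changes were -0.75 ± 0.06, adjusted p = 4.5e-05 in NF1KO and -0.63 ± 0.06, adjusted p = 5.08e-06 in CTRL cells, with a difference of -0.12 ± 0.09, adjusted p = 0.504. In DMSO it was higher in NF1KO than in CTRL cells (0.23 ± 0.06, adjusted p = 0.0294), a call lost without either NF1KO DMSO library, CTRL DMSO replicate 1 or CTRL DMSO replicate 3.

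The oxidative branch enzyme PGD ran from 123 to 206 CPM and fell in both lines (-0.40 ± 0.08, adjusted p = 0.00454 in NF1KO; -0.40 ± 0.07, adjusted p = 0.000722 in CTRL). TALDO1, transaldolase, ran from 53.9 to 88.8 CPM and fell in both (-0.37 ± 0.10, adjusted p = 0.0252; -0.39 ± 0.09, adjusted p = 0.00454), as did the epimerase RPE, which ran from 42.5 to 60.7 CPM (-0.25 ± 0.08, adjusted p = 0.0481; -0.36 ± 0.07, adjusted p = 0.00176). RPE's NF1KO call was lost in 8 of the 11 fits that left out 1 library, and its overlapping neighbour KANSL1L held 7.27% as many counts. PGLS, the lactonase, at 18.1 to 27.8 CPM, and RPIA, the ribose isomerase, at 17.02 to 21.7 CPM, passed the test in no comparison of the main design.

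PRPS2 (chromosome X, 12791412 to 12824222) had 107, 99.6 and 90.5 CPM in NF1KO cells with BYL719, and 87.9 and 82.6 CPM with DMSO. In CTRL cells PRPS2 had 64.3, 60.4 and 58.1 CPM with BYL719, and 78.1, 78.6 and 77.6 CPM with DMSO. Treated libraries were all above DMSO libraries in NF1KO cells and all below them in CTRL cells. Its change was 0.22 ± 0.08, adjusted p = 0.0776 in NF1KO and -0.36 ± 0.07, adjusted p = 0.00141 in CTRL cells, a difference of 0.57 ± 0.11, adjusted p = 0.0047, and under BYL719 it was higher in NF1KO than in CTRL cells (0.70 ± 0.07, adjusted p = 7.57e-06). PRPS1, which encodes the same activity, had 55.9, 51.4 and 56.6 CPM in NF1KO cells with BYL719, and 50.2 and 49.4 CPM with DMSO. In CTRL cells PRPS1 had 54.98, 61.4 and 62.6 CPM with BYL719, and 51.8, 56.1 and 51.2 CPM with DMSO. It passed the test in no comparison of the main design, and its change of 0.17 ± 0.07, adjusted p = 0.069 in CTRL cells was called with the replicate block (0.17, adjusted p = 0.0471).

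Steps with more than 1 gene were compared by the log2 ratio of the 2 genes within each library, which needs no library scaling. Of 10 pairs, LDHA to LDHB and TKT to TKTL1 were not read because the second gene was at the floor, and 8 were tested with an exact permutation test over 200 arrangements (2-sided, smallest p 0.005, adjusted over 10 pairs). With BYL719 against DMSO over both lines 6 of 8 ratios changed, and with NF1KO against CTRL over both treatments 5 of 8. Ratios of other gene pairs were not tested, so whether these counts are particular to the pathway cannot be told. Of all single genes, 44.4% were called with BYL719 in CTRL cells and 18.7% in NF1KO cells. Between the lines 39.8% were called in BYL719 and 20.3% in DMSO. Both tests use all 11 libraries, and the pairs PFKL to PFKP and PFKM to PFKP share PFKP.

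Of the 8 ratios, that of aldolase changed most with BYL719, a change in the log2 ratio of ALDOA to ALDOC of -0.75, adjusted p = 0.025 (-0.69 in NF1KO and -0.81 in CTRL cells), and it was higher in NF1KO than in CTRL cells (0.49, adjusted p = 0.01). Per kilobase, ALDOA made up 92.1% ± 0.0632 in NF1KO BYL719, 94.96% ± 0.039 in NF1KO DMSO, 88.9% ± 0.331 in CTRL BYL719 and 93.3% ± 0.444 in CTRL DMSO (SD over libraries), so ALDOC stayed the minor form throughout. PFKFB3 gained on PFKFB4 with BYL719 (0.34, adjusted p = 0.025) and stood higher against it in NF1KO than in CTRL cells (1.27, adjusted p = 0.01); its share of the pair was 93.4% ± 0.856 in NF1KO BYL719, 92.1% ± 0.3 in NF1KO DMSO, 85.9% ± 1.07 in CTRL BYL719 and 82.4% ± 1.19 in CTRL DMSO.

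Phosphofructokinase shifted toward PFKP in NF1KO cells and away from it with BYL719. The ratio of PFKL to PFKP changed by 0.31, adjusted p = 0.025 with BYL719 and by -0.48, adjusted p = 0.01 in NF1KO against CTRL cells, and that of PFKM to PFKP by 0.40, adjusted p = 0.025 and by -0.59, adjusted p = 0.01. PFKP made up 39.3% ± 1.27 in NF1KO BYL719, 42.8% ± 0.14 in NF1KO DMSO, 29.1% ± 0.861 in CTRL BYL719 and 36.5% ± 0.355 in CTRL DMSO of the reads per kilobase of the 3 genes. The PRPS1 to PRPS2 ratio was lower in NF1KO than in CTRL cells (-0.52, adjusted p = 0.01 by the permutation test). That value is the mean of -0.82 in BYL719 and -0.21 in DMSO. With BYL719 over both lines the ratio missed the threshold (0.22, adjusted p = 0.15), the mean of -0.08 in NF1KO and 0.53 in CTRL cells. PRPS2 was the larger share in NF1KO cells and in CTRL DMSO cells. It made up 62.1% ± 2.53 in NF1KO BYL719, 60.8% ± 0.779 in NF1KO DMSO, 48.1% ± 2.98 in CTRL BYL719 and 57.2% ± 1.08 in CTRL DMSO.

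SLC16A1 gained on SLC16A3 with BYL719 (0.46, adjusted p = 0.0429), and the difference between NF1KO and CTRL cells missed the threshold (-0.38, adjusted p = 0.0714). SLC16A3 kept 80.8% ± 2.21 in NF1KO BYL719, 84.4% ± 1.51 in NF1KO DMSO, 74.9% ± 4.87 in CTRL BYL719 and 81.5% ± 3.29 in CTRL DMSO. The ENO1 to ENO2 ratio fell with BYL719 (-0.26, adjusted p = 0.0429), but ENO1 stayed near the whole of enolase, at 98.6% ± 0.0974 in NF1KO BYL719, 98.9% ± 0.0507 in NF1KO DMSO, 98.9% ± 0.127 in CTRL BYL719 and 98.9% ± 0.0957 in CTRL DMSO. The HK1 to HK2 ratio was 0.33, adjusted p = 0.05 in NF1KO against CTRL cells, at the threshold and not below it; adjusted over the 8 tested pairs alone its adjusted p was 0.04, and 6 of 8 ratios passed between the lines. Its change over both lines with BYL719 was -0.01, adjusted p = 0.93, the mean of 0.18 in NF1KO and -0.20 in CTRL cells. Within the 3 same-numbered CTRL pairs it was lower with BYL719 each time, by log2 differences of -0.15, -0.26 and -0.17. With labels swapped only within those CTRL pairs (80 arrangements, exact permutation test, smallest p 0.0125) the same 6 ratios passed with BYL719, each with an adjusted p = 0.0417, and HK1 to HK2 had an adjusted p = 0.912. With BYL719, 3 of the 8 ratios passed without CTRL DMSO replicate 2, NF1KO DMSO replicate 2 or NF1KO DMSO replicate 3; between the lines 8 passed without CTRL DMSO replicate 3. Without both CTRL libraries numbered 1, 0 of the 8 ratios passed with BYL719, in a permutation test with fewer arrangements and a smallest p above 0.005. The 6 kept their direction, with changes of -0.74, 0.32, 0.45, 0.34, 0.44 and -0.22 for ALDOA to ALDOC, PFKL to PFKP, PFKM to PFKP, PFKFB3 to PFKFB4, SLC16A1 to SLC16A3 and ENO1 to ENO2. Their adjusted p in that test was 0.0667 (0.0833 for ENO1 to ENO2).

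**Figure D4:**
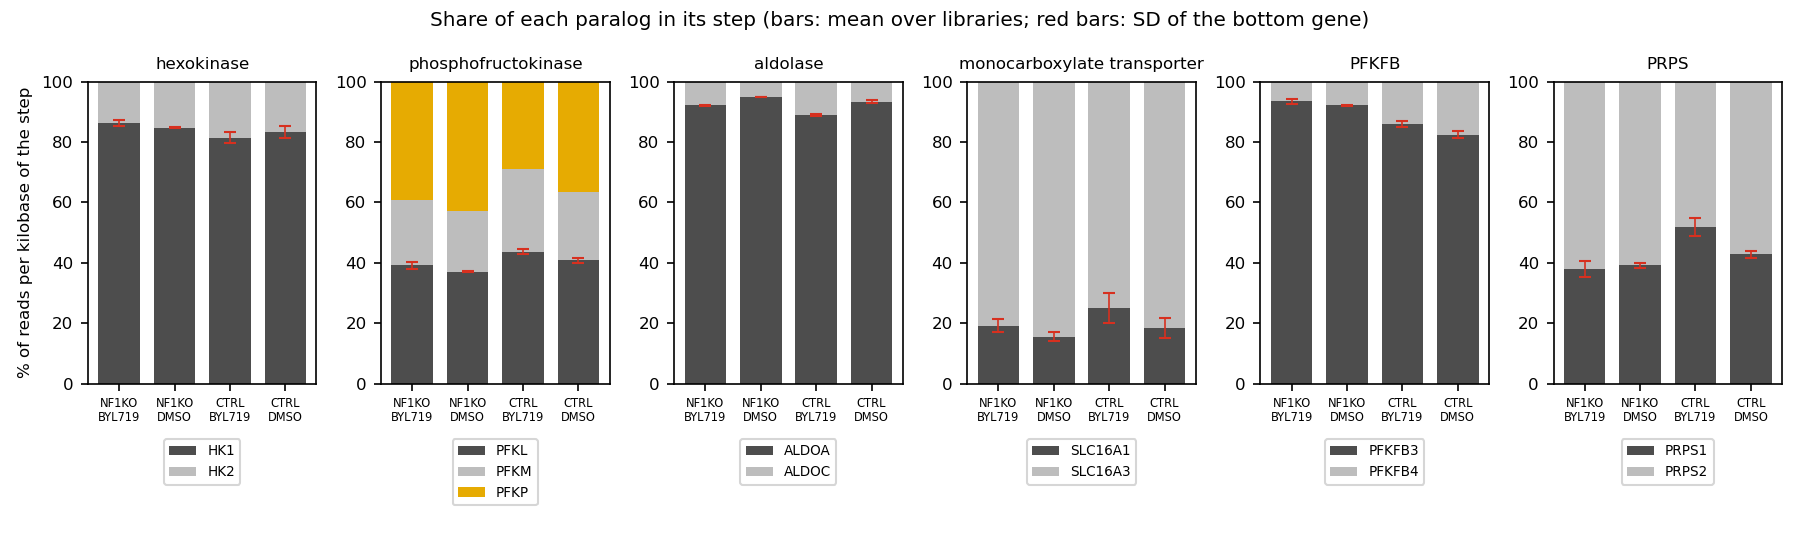
Share of reads per kilobase taken by each gene at 6 steps (hexokinase, phosphofructokinase, aldolase, monocarboxylate transporters, PFKFB and PRPS), as group means in percent from NF1KO BYL719 to CTRL DMSO; red bars are 1 SD of the bottom gene over libraries. PFKFB3 takes 93.4% and 92.1% of its pair in NF1KO cells against 85.9% and 82.4% in CTRL cells, and PRPS2 drops to 48.1% in CTRL BYL719 cells.

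Lists of other genes of glucose metabolism are read against the share of all genes called in either direction, 18.7% with BYL719 in NF1KO cells, 44.4% with BYL719 in CTRL cells, 39.8% between the lines in BYL719 and 20.3% in DMSO. Of 9 tested other glycolysis genes, 2 fell with BYL719 in NF1KO cells (22.2% called), near the share of all genes, and 1 rose and 2 fell in CTRL cells (33.3%), below it. PGM1, which feeds glycogen-derived glucose phosphate into glycolysis, averaged 29.1 ± 1.47 CPM in NF1KO BYL719, 41.5 ± 0.734 CPM in NF1KO DMSO, 25.1 ± 2.86 CPM in CTRL BYL719 and 49.3 ± 3.52 CPM in CTRL DMSO, and its log2 change was -0.51 ± 0.10, adjusted p = 0.00418 in NF1KO and -0.98 ± 0.09, adjusted p = 4.02e-06 in CTRL cells, with a difference of 0.46 ± 0.13, adjusted p = 0.0478. Of 6 tested sugar transporters, 1 rose and 1 fell in NF1KO cells (33.3% called against 18.7% of all genes) and 2 rose and 2 fell in CTRL cells (66.7% against 44.4%). SLC2A6 fell in both (-0.70 in NF1KO and -0.69 in CTRL). SLC2A12 rose in both (1.90 ± 0.52 in NF1KO and 1.60 ± 0.40 in CTRL), from low means of 0.156 and 0.248 CPM with DMSO.

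Of 16 genes of pyruvate use and lactate transport, 3 rose and 4 fell with BYL719 in NF1KO cells (43.8% called against 18.7% of all genes), and 2 rose and 6 fell in CTRL cells, 50% against 44.4%, near the background. DLAT and PDHX, subunits of the pyruvate dehydrogenase complex, fell in both lines (DLAT -0.31 in NF1KO and -0.63 in CTRL; PDHX -0.29 and -0.48). PDK4, another kinase that inhibits that complex, averaged 4.91 ± 0.501 CPM in NF1KO BYL719, 2.11 ± 0.196 CPM in NF1KO DMSO, 1.58 ± 0.256 CPM in CTRL BYL719 and 1.77 ± 0.45 CPM in CTRL DMSO; it rose in NF1KO cells (1.22 ± 0.21, adjusted p = 0.0025) with a difference from CTRL of 1.38 ± 0.29, adjusted p = 0.0102. Between the lines, 6 were higher and 1 lower in NF1KO in BYL719 (43.8% called against 39.8% of all genes), and 3 higher and 1 lower in DMSO (25% against 20.3%), both near the background. SLC16A4, a further member of that transporter family, was higher by 2.11 ± 0.29 and 1.87 ± 0.37. Its level was low, with means from 0.191 CPM in CTRL DMSO to 1.45 CPM in NF1KO BYL719. EMB and BSG, which chaperone the lactate transporters to the cell surface, were higher by 0.67 and 0.43 and by 0.60 and 0.59.

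Of 4 tested other pentose phosphate genes, 1 rose and 2 fell with BYL719 in NF1KO cells (75% called against 18.7% of all genes) and 2 rose and 1 fell in CTRL cells (75% against 44.4%), 3 genes in each case. H6PD, the hexose phosphate dehydrogenase of the endoplasmic reticulum, rose in both (0.72 ± 0.09, adjusted p = 0.000512 in NF1KO; 0.74 ± 0.08, adjusted p = 2.1e-05 in CTRL) and was lower in NF1KO than in CTRL cells (-0.53 in BYL719; -0.52 in DMSO). SHPK, which makes sedoheptulose phosphate, fell in both (-0.45; -0.67). Of 4 gluconeogenesis genes, 2 were higher and 1 lower in NF1KO cells in each treatment (75% called, against 39.8% of all genes in BYL719 and 20.3% in DMSO). They were PCK2 with log2 differences of 0.42 in BYL719 and 0.48 in DMSO, PC by 0.41 and 0.37, and FBP1, which reverses phosphofructokinase, by -1.05 and -0.64.

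A further list held 13 genes, transcription factors of the pathway and genes linked to them. Of these, 4 rose and 1 fell with BYL719 in NF1KO cells, 38.5% called against 18.7% of all genes. In CTRL cells 5 rose and 1 fell, 46.2% against 44.4%, near the background. MYC averaged 44.4 ± 3.61 CPM in NF1KO BYL719, 29.8 ± 0.314 CPM in NF1KO DMSO, 40.9 ± 3.97 CPM in CTRL BYL719 and 18.5 ± 1.32 CPM in CTRL DMSO, and rose in both lines (0.57 ± 0.10, adjusted p = 0.0025 in NF1KO; 1.14 ± 0.09, adjusted p = 1.18e-06 in CTRL) and the difference was -0.57 ± 0.13, adjusted p = 0.0176. EPAS1, a hypoxia factor subunit, averaged 177 ± 7.54 CPM in NF1KO BYL719, 140.4 ± 0.474 CPM in NF1KO DMSO, 521 ± 25.3 CPM in CTRL BYL719 and 187 ± 18.9 CPM in CTRL DMSO, and its rise differed between the lines by -1.14 ± 0.11, adjusted p = 8.42e-05. TXNIP, which restrains glucose uptake and is itself induced by glucose, rose with BYL719 (0.49 in NF1KO; 0.66 in CTRL) and was lower in NF1KO than in CTRL cells (-1.03 ± 0.07, adjusted p = 4.39e-07 in BYL719; -0.86 ± 0.08, adjusted p = 1.68e-05 in DMSO). HIF1A was lower in NF1KO cells, with log2 differences of -0.44 in BYL719 and -0.23 in DMSO. By the same edgeR test EGLN3 rose with BYL719 in NF1KO (0.84 ± 0.12, adjusted p = 0.000652) and CTRL cells (1.23 ± 0.10, adjusted p = 1.8e-06). Under BYL719 EGLN3 was lower in NF1KO than in CTRL cells (-0.55 ± 0.10, adjusted p = 0.000779). The difference in its response was not called (-0.39 ± 0.15, adjusted p = 0.151).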

How the data were processed

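RNA from T47D cells was sequenced as single reads from a stranded poly(A) kit, per the labels' protocols. The authors deposited raw read counts per gene for 11 libraries of 12 labelled samples. Reads were handled with STAR 2.5.2a, SAMtools 1.7, Picard 2.9.2 and edgeR on hg38, per the submitters' processing notes; the counting tool, annotation and strand setting are not given in the sources used here. The 32 genes and the lists of other genes were chosen with earlier results of these data known.

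Counts were tested with edgeR 4.0.16 in R 4.3.3 (filterByExpr, TMM scaling, a model of 4 group means with 7 residual degrees of freedom, quasi-likelihood F test), with p adjusted by Benjamini-Hochberg over the 16081 genes tested and a call at an adjusted p under 0.05. SE is the log2 change over the square root of F. CPM used TMM-scaled library sizes. Paralog ratios added 0.5 to each count. RPKM used union exon lengths of GENCODE release 29, since the lengths of the counting annotation are unknown. Positions and promoters came from RefSeq (GRCh38.p14); SLC16A1 had no listed promoter. The procedure was tested on simulated counts.

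Values per library are given for the 6 called genes with the largest change in each comparison and a mean of at least 1 CPM. They are also given for both genes of pairs whose ratio had an adjusted p under 0.1. From each other list at most 4 called genes per comparison are named, not always those with the lowest adjusted p. Same-numbered CTRL libraries deviated together (correlations of deviations from the group means 0.59, 0.34 and 0.32). The unlike-numbered pairs of numbers 2 and 3 gave 0.18 and 0.23, so only the 2 libraries numbered 1 were clearly matched. Deviations from a mean of 3 sum to 0, so the number-1 departure alone tends to make numbers 2 and 3 correlate. The pairing comes from the data, not the labels. For NF1KO the 2 same-numbered pairs gave 0.08 and 0.15. Between the lines, same-numbered libraries of a treatment gave -0.09 to 0.15, and no NF1KO DMSO library numbered 1 was analysed. The replicate block still fits 1 effect per number over both lines, so its calls rest on that assumption. Alternatives were RLE and upper-quartile scaling, other filters, DESeq2 1.42.0, limma 3.58.1 (voom), the compared libraries alone, replicate blocks and each library left out; leaving out both CTRL libraries numbered 1 and, for the ratios, adjustment over the tested pairs alone and swaps within CTRL pairs were added after seeing the data.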

Additional observations from a re-analysis of the deposited data

Results flagged for a closer look

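For 6 genes the response to BYL719 differed between NF1KO and CTRL cells by the interaction term of the edgeR fit, adjusted over all genes tested. The log2 change in NF1KO minus that in CTRL cells was -0.42 for SLC2A1 (adjusted p = 0.0317; -0.21 in NF1KO and 0.21 in CTRL), -0.45 for HK2 (adjusted p = 0.0484; -0.42 and 0.03), 0.52 for LDHA (adjusted p = 0.00562; -0.30 and -0.82), 0.52 for SLC16A1 (adjusted p = 0.0425; 0.07 and -0.45), 0.52 for PDK1 (adjusted p = 0.00721; -0.11 and -0.63), and 0.57 for PRPS2 (adjusted p = 0.0047; 0.22 and -0.36). LDHA and PDK1 were lower in NF1KO than in CTRL cells in DMSO, with log2 differences of -0.36 and -0.58. These differences use the same DMSO libraries and enter the interaction term, so they are not separate evidence.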

How the results depend on the processing

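No gene called in the main design changed direction under any alternative, and the counts of called genes not named next stayed within 1.5 times. With the replicate block, 10 genes (13 with a block within each genotype) differed in their BYL719 response between NF1KO and CTRL cells, against 6 without it; 23 were called with BYL719 in NF1KO cells with a block within each genotype and 22 without both CTRL libraries numbered 1, against 12. Without those 2 libraries 0 paralog ratios passed with BYL719, against 6, in a test with fewer arrangements and so a larger smallest p. Adjustment over the 8 tested pairs alone gave 6 in both contrasts, against 6 with BYL719 and 5 between the lines. Leaving out 1 library at a time gave 3 to 17 genes called with BYL719 in NF1KO cells, 17 to 20 in CTRL cells, 10 to 13 between NF1KO and CTRL cells in BYL719, 2 to 10 in DMSO, and 2 to 5 for the difference in response; paralog ratios called ranged from 3 to 5 for BYL719 and from 5 to 8 between the lines. The HK1/HK2 log2 ratio change with BYL719, -0.01 in all libraries, ranged from -0.0668 to 0.0407. The cause of these shifts was not tested. Among the 32 genes, only LDHB and TKTL1 had too few counts to be tested, at most 1 and 2 in any library.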
